A study of Mus musculus with 4 samples.

Results

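The cells described here are 400 B cells of mouse spleen that passed a marginal zone rule, 268 from the library Spleen-Ctrl and 132 from Spleen-shPrmt9, out of 17011 spleen cells and 37830 cells in all 4 libraries after filtering. They were chosen by their raw counts of unique molecular identifiers (UMIs, each standing for 1 captured mRNA molecule): at least 2 of Cd79a, at least 1 of Ms4a1, none of the T cell genes Cd3e, Cd3d and Cd3g, none of Fcer2a, none of Cd93, and a sum of at least 3 over Cr2, Cd1d1 and Fcrl5. The mice were wild-type C57BL/6J recipients, 6 to 8 weeks old by the labels, that had been transplanted with MA9 leukaemia cells, which are mouse haematopoietic cells transformed by the MLL-AF9 fusion. The transplanted cells carried a doxycycline-inducible hairpin, either shPrmt9 against the arginine methyltransferase Prmt9 or the control shCtrl, and all mice drank doxycycline for 7 days. The hairpin was in the leukaemia cells, so the B cells of the host had no hairpin of their own. By the paper's account, each library came from a representative mouse of its group. With 1 library per group there is no replicate and no test, and all intervals given are 95% intervals that cover counting error only.

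Marginal zone B cells sit at the border between the white and the red pulp of the spleen, where they meet antigens carried by blood. They bind complement-coated antigen through the receptor CD21 (Cr2), present lipids on CD1d (Cd1d1), depend on Notch2 signals for their development, carry much IgM and little IgD, and can turn into IgM-secreting plasmablasts quickly. Follicular B cells, the larger population, carry CD23 (Fcer2a) and more IgD, and recirculate through follicles. Type I interferon acts on nearly all cells through the receptor chains Ifnar1 and Ifnar2 and factors that include Stat2 and Irf9, which bind short repeats of GAAA in the promoters of interferon-stimulated genes.

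The 4 libraries held 84009744 to 188030429 UMIs in their listed barcodes, and 8065 to 11174 cells per library kept at least 200 detected genes and at most 20% mitochondrial UMIs. The spleen libraries shared 13 of the kept cell barcodes, and other pairs of libraries shared 22 to 35. The gate of B cells (the rule's conditions on Cd79a, Ms4a1 and the Cd3 genes) held 5306 cells of Spleen-Ctrl and 1260 cells of Spleen-shPrmt9, or 59.3% and 15.6% of the kept cells. The depths differed: the median gated B cell had 6427 UMIs in Spleen-Ctrl and 16596.5 in Spleen-shPrmt9. Cells that passed the marginal zone rule were deeper still, with medians of 12427.5 UMIs (1997 to 65976) and 24778.5 UMIs (7131 to 88022).

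The members were 5.05% of the gated B cells in Spleen-Ctrl (4.48 to 5.67%, Clopper-Pearson) and 10.5% in Spleen-shPrmt9 (8.84 to 12.3%), a ratio of 2.07 (1.67 to 2.56). As a share of all kept cells the order was the opposite, with 3.0% in Spleen-Ctrl and 1.64% in Spleen-shPrmt9, a ratio of 0.546 (0.440 to 0.675). A rule on raw UMIs passes more cells where cells are deeper. Cells of at least 5000 UMIs were therefore thinned at random to 5000 UMIs, and shallower cells were left out. All conditions were applied again to the thinned counts, so a cell that lost its Fcer2a or Cd93 UMIs could enter the members. Then 86 of 4125 gated cells passed in Spleen-Ctrl and 16 of 1019 in Spleen-shPrmt9. These were shares of 2.08% and 1.57% with a ratio of 0.753 (0.412 to 1.29). The higher share of the gate in Spleen-shPrmt9 was thus not detectable among cells of at least 5000 UMIs brought to equal depth. The other gated cells were split by the same rule into Fcer2a-positive cells (follicular gate, 1480 and 29 cells), Cd93-positive cells (transitional gate, 333 and 80 cells) and the rest (3225 and 1019 cells). Fcer2a-positive cells were 27.9% of the gated B cells in Spleen-Ctrl and 2.30% in Spleen-shPrmt9, a ratio of 0.0825 (0.0551 to 0.119), so values of Fcer2a-positive cells in Spleen-shPrmt9 rest on 29 cells and 497051 UMIs.

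**Figure D1:**
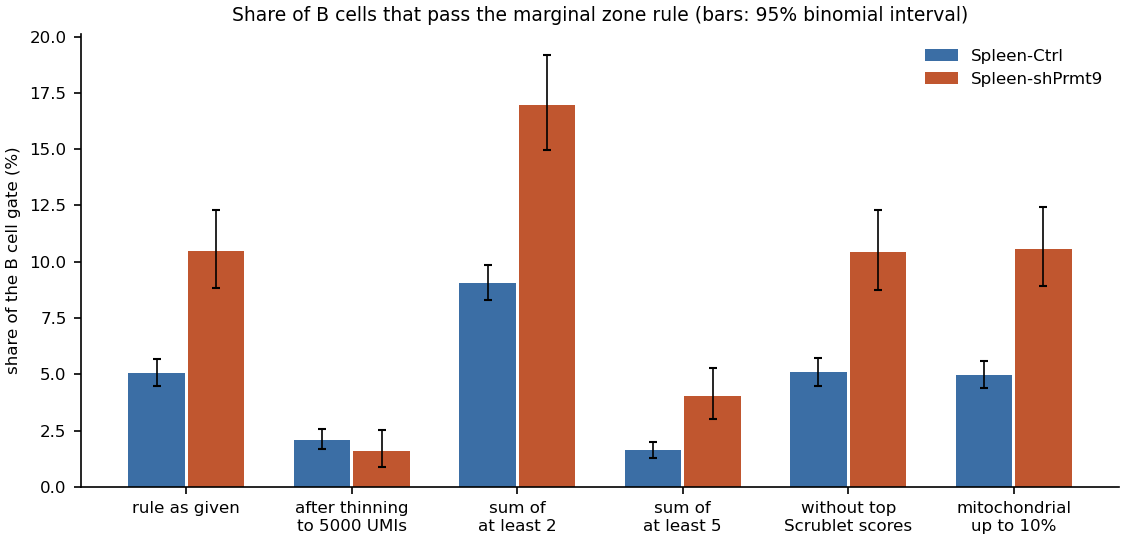
Share of gated B cells, in percent, that passed the marginal zone rule in Spleen-Ctrl (blue) and Spleen-shPrmt9 (orange), under the rule as given and 5 other settings (bars: share, whiskers: 95% binomial interval). The orange bar is the higher in each setting (10.5% against 5.05% under the rule as given) except after thinning to 5000 UMIs, where it is the lower, at 1.57% against 2.08%.

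The 3 genes of the sum were not used alike in the 2 libraries. A Cr2 UMI was present in 153 of the 268 control members (57.1%) and in 31 of the 132 shPrmt9 members (23.5%), while Fcrl5, an Fc receptor-like protein of B cells, was present in 210 and 122 of them. Fcrl5 alone reached 3 UMIs in 128 control and 99 shPrmt9 members, whereas Cr2 and Cd1d1 together reached 3 UMIs in 103 and 17. Just inside the threshold, 120 control and 47 shPrmt9 members had a sum of 3, and just outside it 212 and 82 cells had a sum of 2. Over all members, Cr2 (chromosome 1, 195136811 to 195176716, minus strand, GRCm38) was at 81.3 UMIs per 1000000 (CPM) in control members and 11.5 CPM in shPrmt9 members. Cd1d1 was at 49.2 and 22.4 CPM, and Fcrl5 at 170.2 and 132 CPM. The Fcer2a-positive cells of Spleen-Ctrl had 35.8 CPM of Cr2 and 23.8 CPM of Cd1d1. The shPrmt9 members were thus chosen mainly through Fcrl5, with Cr2 below the level of control follicular-gate cells. These values come from genes of the rule and are a description of the choice.

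Markers outside the rule fitted the label in part. Cd9, a tetraspanin of marginal zone and B-1 cells, was at 229 CPM in the control members (214 to 244) and 264 CPM in the shPrmt9 members (249 to 281), against 36.6 and 14.1 CPM in the Fcer2a-positive cells. Cd36, a scavenger receptor, was at 30.4 and 46.6 CPM in the members and at 6.87 and 6.04 CPM in Fcer2a-positive cells. Mzb1, a chaperone for IgM assembly named for marginal zone and B-1 cells, was at 830.1 and 1519.9 CPM in members against 546 and 555 CPM. In these 3 genes the members of each library lay above the Fcer2a-positive cells of the same library, and the intervals of the ratios did not include 1. Myof, a membrane repair protein, and Dtx1, a target of Notch, lay above as well, at 22.5 and 14.8 CPM and at 74.5 and 54.7 CPM in the members. Tm6sf1 (59.5 CPM in control members, 72.7 in control Fcer2a-positive cells) did not lie above in Spleen-Ctrl, and the sphingosine receptor S1pr3 had only 9 and 8 UMIs. Ighd, which encodes the IgD heavy chain, was at 266 CPM in control members and 711 CPM in control Fcer2a-positive cells, and Ighm at 3355 and 3458 CPM. Cr2, Cd1d1 and Fcrl5 are genes of the rule, so their levels cannot decide the label in the shPrmt9 library. The markers outside the rule are not particular to marginal zone cells. Cd9, Mzb1 and Bhlhe41 mark B-1 cells too, and the Cd93-positive cells of that library had 204 CPM of Cd9 and 73.0 CPM of Ighd, beside 264 and 47.6 CPM in the members. The shPrmt9 members were therefore not identified as marginal zone cells by these data, and the cells of both libraries are called members of the marginal zone gate here, after the rule that chose them.

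**Figure D2:**
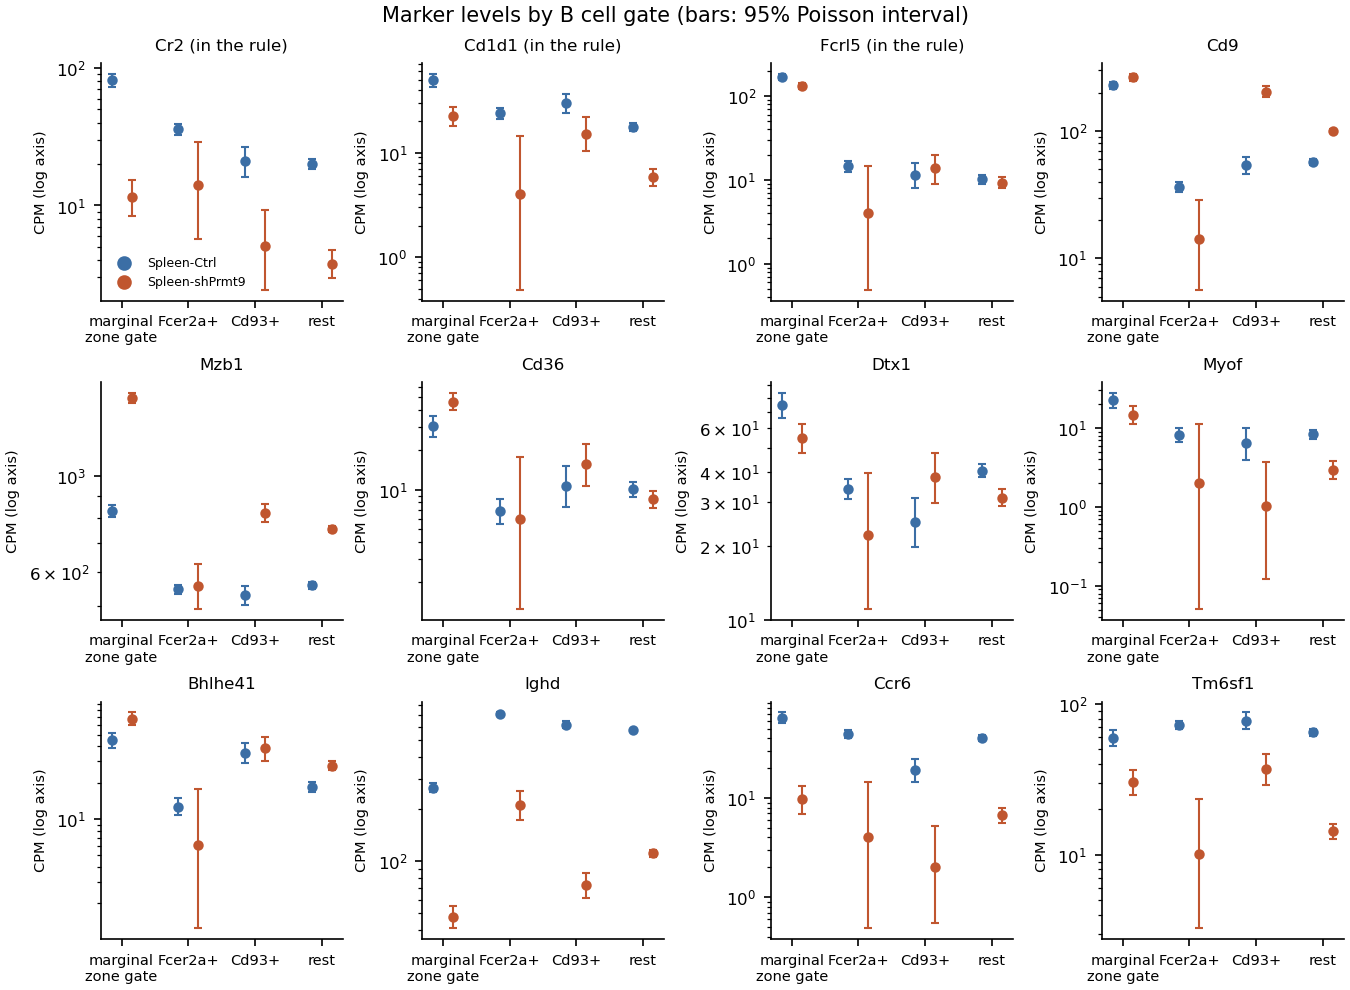
Level of 12 marker genes in CPM of summed UMIs (log axis, scale differs by panel) for the marginal zone gate, Fcer2a-positive, Cd93-positive and remaining gated B cells of Spleen-Ctrl (blue) and Spleen-shPrmt9 (orange), with 95% Poisson intervals as whiskers. Cd9, Mzb1, Cd36 and Bhlhe41 are highest in the marginal zone gate of both libraries, while Cr2 of the orange points lies at 11.5 CPM there, under the blue Fcer2a-positive level of 35.8 CPM.

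Shares of cells with a UMI were compared after each cell had been thinned to 3000 UMIs, which left out 1 control member and left 1471 and 28 Fcer2a-positive cells. Cd9 was then found in 37.1% of control and 48.5% of shPrmt9 members (68.7% and 86.4% before thinning), against 6.12% and 3.57% of Fcer2a-positive cells (14.2% and 20.7% before), the last being 1 of 28 cells. In a T cell gate (at least 2 UMIs of the Cd3 genes and none of Cd79a), where median depth was 6910 and 8927 UMIs, Cd9 was found in 19.8% and 17.2% of thinned cells. The share of cells with Cd9 was thus higher in members than in Fcer2a-positive cells of both libraries at equal depth. Mzb1 was found in 86.1% and 93.2% of thinned members, in 75.4% and 64.3% of thinned Fcer2a-positive cells and in 2.36% and 2.63% of thinned T cells. Cd36 was found in 6.74% and 8.33% of thinned members and in 1.22% and 7.14% of thinned Fcer2a-positive cells, so that a difference was not detectable with 28 cells in Spleen-shPrmt9. Of the genes in the rule, whose presence in members the choice fixed, Cr2 was found in 23.6% and 2.27% of thinned members (57.1% and 23.5% before thinning) and Fcrl5 in 43.8% and 39.4%.

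Members with and without a Cr2 UMI were set side by side within each library, with S100a6, Spn and Apoe added after their values were seen. In Spleen-Ctrl the 115 members without Cr2 had 68.9 CPM of Bhlhe41, a transcription factor of B-1 and innate-like B cells, against 25.6 CPM in the 153 with Cr2, a ratio of 2.69 (1.96 to 3.74). S100a6, a calcium-binding protein, was at 191 against 71.4 CPM, a ratio of 2.67 (2.21 to 3.24), and Spn, which encodes CD43, at 13.8 against 2.65 CPM (6 UMIs). Ighd was lower in the members without Cr2, at 190.1 against 326 CPM, a ratio of 0.583 (0.512 to 0.664). Cd9 (273 and 193 CPM), Dtx1 (76.6 and 72.8 CPM) and Plac8 (2547 and 2615 CPM) differed by less than 2-fold. Mki67, a proliferation marker, was at 60.1 against 7.94 CPM, but 74.0% of all its UMIs in control members came from 1 cell. In Spleen-shPrmt9 Bhlhe41 was at 68.0 CPM in both subsets, and Cd9 at 268 and 256 CPM. S100a6 was at 159.8 CPM without and 39.6 CPM with Cr2, and Apoe, an apolipoprotein, at 958 and 296 CPM. Myof was lower without Cr2 in this library, at 10.1 against 25.8 CPM (0.392, 0.226 to 0.679). Cells near the threshold carried much of the S100a6 in Spleen-shPrmt9, where the 47 members with a sum of 3 had 217 CPM of S100a6 and the 51 with a sum of at least 5 had 64.6 CPM. In a split made after these values were seen, members with a sum over 3 had 90.9 CPM without Cr2 and 52.2 CPM with a Cr2 UMI in that library (65 and 20 cells), and 205 and 55.7 CPM in Spleen-Ctrl (70 and 78 cells).

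Summed counts of the members were divided by those of the Fcer2a-positive cells of the same library. A gene was called where it was at least 2-fold higher, or lower, in both libraries. Of 6530 genes with at least 50 UMIs in the groups compared, 58 were called higher (0.888%) and 22 lower (0.337%), and the medians over these genes were -0.11 (log2) in Spleen-Ctrl and -0.14 in Spleen-shPrmt9. The marginal zone program, a list of 22 genes tied to these cells, had 19 genes tested, of which 5 were called higher (Cd36, Dtx1, Cd9, Bhlhe41 and Myof) and 2 lower, with medians of 0.61 and 0.52. The 2 called lower were Gpr183, an oxysterol receptor that guides B cells to the outer follicle (0.448-fold and 0.461-fold), and Lmo2, a transcriptional adaptor (0.413-fold and 0.272-fold). Cd9 had the widest gap of the list in Spleen-shPrmt9, 18.8-fold (9.08 to 46.8), and was 6.25-fold higher in Spleen-Ctrl (5.58 to 7.01). Of the 58 genes called higher and the 22 called lower, 6 and 2 were called the same way against Cd93-positive cells. Against the rest of the gate 25 and 3 were. With the rule applied after thinning 7 and 1 were, with 1009 genes tested. Most of the called genes were thus not shown to be particular to the members. Members were deeper than Fcer2a-positive cells in both libraries, and the part of depth in these ratios was not tested beyond the settings given in the closing section.

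The genes called higher with the widest smaller ratio were Mt1, Lmo7, Derl3, Csf2rb, Cd9, Cd300lf, Lysmd2, Slc7a7, Top2a, Nedd4, Cd36 and Socs2. Csf2rb, the shared beta chain of the receptors for IL-3, IL-5 and GM-CSF, was at 77.2 CPM in control members and 9.78 CPM in Fcer2a-positive cells (7.89-fold, 6.38 to 9.81), and at 68.7 and 6.04 CPM in Spleen-shPrmt9 (11.4-fold, 3.86 to 55.6). Its level was similar in the members of both libraries. Derl3, which helps to export misfolded proteins from the endoplasmic reticulum, was at 12.2 against 1.13 CPM in the control library and 23.7 against 2.01 CPM in the other, the last from 1 UMI. Mt1, a metallothionein, was at 19.1 against 1.78 CPM in Spleen-Ctrl, where 55.1% of the members' UMIs came from 1 cell, and at 49.1 CPM against 0 UMIs in Spleen-shPrmt9, at least 8.14-fold higher with a floor of 3 UMIs over the group. Lmo7, Cd300lf, Lysmd2, Slc7a7 and Socs2 also had 0 UMIs in the 29 Fcer2a-positive cells of Spleen-shPrmt9, and their ratios there were at least 2.28, 2.83, 2.66, 2.24 and 2.15. Top2a, a topoisomerase of dividing cells, was 9.09-fold and 5.63-fold higher, with 28.4% and 25.8% of the members' UMIs from the highest cell.

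The genes called lower with the widest smaller gap were Il4i1, Satb1, Icam1, Cd69, Ssbp2, Ltb, Lmo2, Ifrd1, Dusp2, Neurl3, Gpr183 and Zfp318. Of the fixed list of activation and costimulation genes, 17 were tested, of which 3 were called lower (Dusp2, Cd69 and Ccl4) and 1 higher (Cd80), with medians of -0.49 and -1.20. Over all genes, 0.888% were called higher and 0.337% lower. Ltb, the membrane anchor of lymphotoxin, was at 155 CPM in control members and 384 CPM in Fcer2a-positive cells (0.402, 0.370 to 0.437), and at 84.0 and 451 CPM in Spleen-shPrmt9 (0.186, 0.157 to 0.222). Cd69, which holds lymphocytes in tissue, was at 0.399 and 0.282 of the Fcer2a-positive level, and the adhesion molecule Icam1 at 0.382 and 0.265. Among 14 tested genes of the follicular program, 3 were called lower (Ighd, Zfp318 and Satb1), 0 were called higher, and 11 lay below 1 in both libraries. Zfp318, which is needed to make IgD transcripts, was at 74.0 against 158 CPM in the control library and 17.3 against 48.3 CPM under shPrmt9.

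The ratio of Ighm to Ighd UMIs followed. It was 12.6 in control members (11.9 to 13.5) and 4.86 in control Fcer2a-positive cells (4.75 to 4.97), and in Spleen-shPrmt9 it was 87.7 (75.9 to 102) in members and 10.5 (8.61 to 13.0) in Fcer2a-positive cells. The Cd93-positive cells of Spleen-shPrmt9 were at 103 (87.6 to 122), so a high ratio was not particular to the members there. Cells in which lambda light chain UMIs outnumbered kappa UMIs were 41 of 268 control members (15.3%, 11.2 to 20.2%) and 32 of 132 shPrmt9 members (24.2%, 17.2 to 32.5%). They were 9.60% (8.15 to 11.2%) of Fcer2a-positive cells in Spleen-Ctrl. In Spleen-shPrmt9 they were 3 of 29 such cells (10.3%, 2.19 to 27.4%), an interval that holds the members' share. In the rest of the gate they were 9.92% (8.91 to 11.0%) and 14.2% (12.1 to 16.5%). The lambda constant genes are near-identical copies, so reads may be shared between them.

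**Figure D3:**
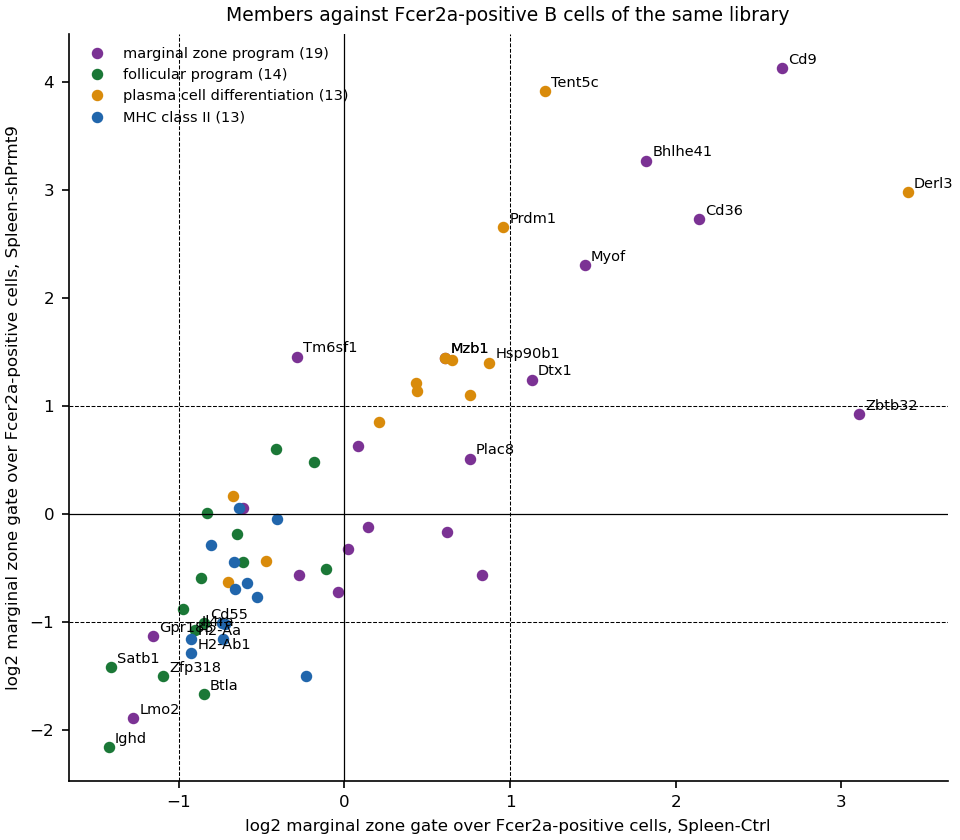
Log2 ratio of members over Fcer2a-positive cells in Spleen-Ctrl (horizontal) and Spleen-shPrmt9 (vertical) for genes of 4 lists with at least 50 UMIs and outside the rule, dashed lines at 2-fold. Cd9, Cd36, Bhlhe41 and Myof lie in the upper right and Ighd, Satb1 and Zfp318 in the lower left in both libraries, while Tm6sf1 is higher only on the vertical axis.

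Against the rest of the gated B cells, which had neither Fcer2a nor Cd93 nor a sum of 3, 9637 genes were tested, of which 55 were called higher in both libraries (0.571%) and 25 lower (0.259%). Cd36, Cd9, Bhlhe41 and Myof of the marginal zone program were called higher again, 4 of 20 tested. Socs2, Derl3, Csf2rb, Gpr55, Tbc1d9, Gm30382, Krt222, Nebl, Nid1, Akr1e1, Cpd and Nedd4 had the widest smaller ratios. Nid1, a basement membrane protein, was at 14.0 CPM in control members and 3.36 CPM in the rest, and at 12.5 and 3.86 CPM in Spleen-shPrmt9. Plk2, Slc4a1, Nck2, Egr1, Wfdc21, Pltp, Car2, Akap12, Bcl6, Satb1, Gm15446 and Crb3 were lowest. Egr1, an immediate early gene, was at 3.92 against 26.7 CPM in the control library and 3.31 against 10.2 CPM under shPrmt9, and Bcl6, the germinal centre repressor, at 12.7 against 29.9 CPM and 2.55 against 7.72 CPM. Slc4a1 and Car2 are genes of red cells, and Car2 was at 4.16 against 25.2 CPM in the control library and 9.93 against 25.7 CPM under shPrmt9.

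The main question of the study for host cells was how they differ when Prmt9 is depleted in the leukaemia. Prmt9 itself, in host cells without a hairpin, had 59 UMIs in control members and 39 in shPrmt9 members, or 14.5 and 9.93 CPM, with a ratio of 0.687 (0.446 to 1.05) that does not differ from 1 beyond counting error. Of 8168 genes with at least 50 UMIs in the members of both libraries together, 227 were at least 2-fold higher in shPrmt9 members (2.78%) and 443 at least 2-fold lower (5.42%), with a median of -0.08 (log2). Of the gene lists, interferon-stimulated genes had the most members on the high side. Genes of MHC class II, of the follicular program and of cell positioning made up groups on the low side.

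Of 48 tested interferon-stimulated genes, 32 were at least 2-fold higher in shPrmt9 members, 0 were at least 2-fold lower, and the median was 1.53 (log2), beside 2.78% and -0.08 over all genes. Isg15, a ubiquitin-like modifier, had 162 UMIs in control and 1759 in shPrmt9 members, 39.7 CPM (33.8 to 46.3) against 448 CPM (427 to 469), a ratio of 11.3 (9.60 to 13.3). Irf7, the factor that amplifies interferon production, was at 22.3 and 263 CPM (11.8, 9.51 to 14.8). Both genes were spread over cells: Irf7 UMIs were found in 23.1% of control and 99.2% of shPrmt9 members, and in 8.61% and 53.8% after thinning to 3000 UMIs. Isg15 was found in 8.61% and 57.6% of thinned members (27.6% and 96.2% before thinning), and in 37.1% and 91.3% of thinned T cells.

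Several antiviral effectors had wider ratios from lower levels. Oasl1, a relative of oligoadenylate synthases that restrains Irf7 translation, was at 7.59 and 146 CPM (19.2, 13.4 to 28.6). Rsad2, which encodes viperin, was at 5.63 and 72.3 CPM (12.8, 8.38 to 20.6), and Ifi44 at 0.735 and 15.3 CPM, the first from 3 UMIs (20.8, 6.78 to 104). Bst2, or tetherin, which holds budding virions at the cell surface, was at 102 and 769 CPM (7.53, 6.79 to 8.36). Ifit1, which binds viral RNA caps, was at 8.08 and 80.9 CPM, the deubiquitinase-like regulator Usp18 at 7.35 and 63.4 CPM, and the membrane protein Ifitm3 at 12.7 and 121 CPM. Ifi204 (1.96 and 61.9 CPM) and Ifi207 (2.45 and 55.0 CPM) belong to a cluster of near-identical genes on chromosome 1, so their counts may be shared with each other, and Ifi204 was below control among the 86 and 16 cells that passed the rule after thinning.

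The 16 tested genes of the list under 2-fold included signalling factors themselves. Stat2 was at 88.2 and 85.5 CPM (0.970, 0.833 to 1.13) and Irf9 at 84.3 and 79.7 CPM (0.946, 0.809 to 1.11). Ly6e was at 1253 and 1092 CPM, and Ifi203 was lower, at 459 and 293 CPM (0.638, 0.592 to 0.687). The receptor chains Ifnar1 (32.1 and 30.3 CPM) and Ifnar2 (46.3 and 41.2 CPM) differed by less than their counting intervals. The intervals for Stat2, Irf9 and both receptor chains included 1.

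**Figure D4:**
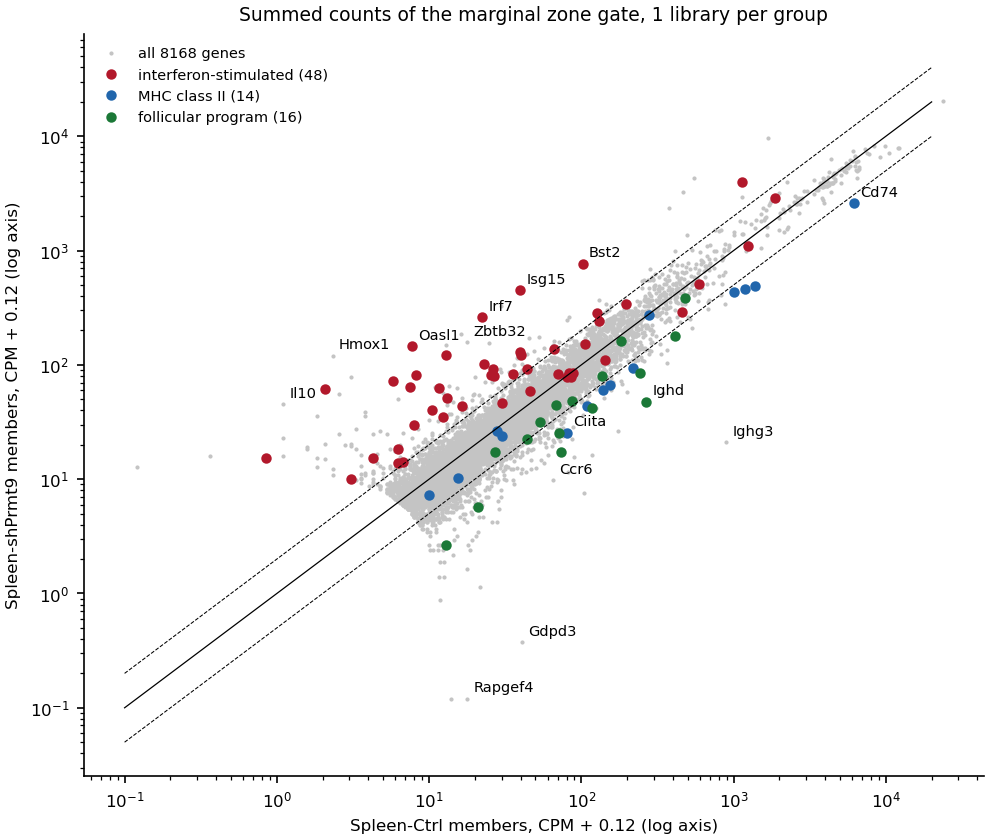
Level of 8168 genes in shPrmt9 members against control members, in CPM plus a small constant on log axes, with the line of equality and dashed lines at 2-fold. Red points (interferon-stimulated genes) lie mostly above the upper dashed line, while blue (MHC class II) and green (follicular program) points lie below equality, all 14 and all 16 of them.

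Upstream sequences of the interferon-stimulated genes are shown because the repeat that complexes with Stat2 and Irf9 bind is a sequence feature the rule did not use. The RefSeq table of promoters (GRCm38.p6) covers 250 bases before to 50 bases after each start, and held 26 of the 32 genes at least 2-fold higher. The letters GAAANNGAAA, searched on the gene's strand and as TTTCNNTTTC for the other strand, with overlaps allowed, were present in 14 of these 26 promoters (53.8%) and in 1079 of 27025 genes in the table (3.99%). Of the 10 promoters found for the 16 genes under 2-fold, 6 held the letters too (60.0%). The list was made of genes known as interferon-stimulated, so its share above that of all genes does not bear on the difference between the libraries. A match is a description of letters and not a site. The 4 promoters below belong to Isg15 (chr4:156200769-156201068, minus), Ifit1 (chr19:34640639-34640938, plus), Rsad2 (chr12:26456403-26456702, minus) and Bst2 (chr8:71537423-71537722, minus), with matches in capitals.
Isg15: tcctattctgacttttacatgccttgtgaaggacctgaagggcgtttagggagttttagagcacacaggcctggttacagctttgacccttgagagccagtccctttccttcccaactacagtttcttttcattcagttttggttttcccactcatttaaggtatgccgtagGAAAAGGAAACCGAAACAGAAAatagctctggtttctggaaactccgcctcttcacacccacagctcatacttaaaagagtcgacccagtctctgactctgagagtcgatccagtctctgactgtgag
Ifit1: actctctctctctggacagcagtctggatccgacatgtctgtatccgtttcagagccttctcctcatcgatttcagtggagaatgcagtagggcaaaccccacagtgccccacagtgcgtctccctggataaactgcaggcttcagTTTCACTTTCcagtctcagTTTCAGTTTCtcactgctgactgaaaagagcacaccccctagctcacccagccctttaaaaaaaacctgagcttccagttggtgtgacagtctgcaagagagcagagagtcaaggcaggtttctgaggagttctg
Rsad2: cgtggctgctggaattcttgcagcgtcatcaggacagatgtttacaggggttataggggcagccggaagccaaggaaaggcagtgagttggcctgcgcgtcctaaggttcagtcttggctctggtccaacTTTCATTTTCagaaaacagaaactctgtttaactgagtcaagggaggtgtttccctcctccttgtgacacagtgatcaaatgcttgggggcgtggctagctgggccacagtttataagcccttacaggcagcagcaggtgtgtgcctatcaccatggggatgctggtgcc
Bst2: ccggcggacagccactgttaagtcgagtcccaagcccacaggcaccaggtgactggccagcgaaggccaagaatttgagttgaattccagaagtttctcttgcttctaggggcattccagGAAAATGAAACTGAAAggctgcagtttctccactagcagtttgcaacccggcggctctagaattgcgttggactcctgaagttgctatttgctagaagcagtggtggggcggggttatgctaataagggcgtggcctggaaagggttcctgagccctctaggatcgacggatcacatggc
Isg15 held 3 overlapping matches that began 78, 72 and 66 bases before the start, Ifit1 2 matches at 104 and 85 bases, Rsad2 1 match at 120 bases and Bst2 2 overlapping matches at 130 and 124 bases. Their ratios in members were 11.3, 10.0, 12.8 and 7.53 in the same order. Irf7 (11.8-fold) and Oasl1 (19.2-fold) had no match in this window, and Stat2 (0.970-fold) had 1.

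The interferon-stimulated genes were then set beside the same genes in the other gates. In Fcer2a-positive cells 27 of 46 tested genes were at least 2-fold higher with a median of 1.22, beside 7.25% and -0.06 over all genes tested there. In Cd93-positive cells 29 of 47 were at least 2-fold higher with a median of 1.34 (5.05% and -0.12 over all genes), and in the rest of the gate 30 of 50 with a median of 1.24 (3.99% and -0.18). In none of these gates was a gene of the list at least 2-fold lower. Isg15 was 19.9-fold higher in Fcer2a-positive cells (16.9 to 23.3), so that its ratio in members was 0.568 of theirs (0.453 to 0.712), while Irf7 was 7.74-fold higher there and its ratio in members was 1.52 times theirs (1.14 to 2.03). Oasl1, Rsad2, Bst2 and Ifi204 had ratios of ratios against Fcer2a-positive cells whose intervals included 1. Between members and Fcer2a-positive cells of the same library, 0 of 45 tested genes of the list differed at least 2-fold the same way in both libraries, with medians of -0.30 in Spleen-Ctrl and -0.19 in Spleen-shPrmt9. Taking each library alone, Ifit2 and Oasl2 were at least 2-fold lower in control members and 0 genes of the list were higher, beside 0.704% lower and 1.76% higher over all genes. In shPrmt9 members Ifit3b was at least 2-fold lower and Ddx60, with 3 UMIs in Fcer2a-positive cells, higher, beside 3.68% lower and 4.36% higher over all genes. The difference between the libraries in these genes was thus present in all 4 gates, and was not particular to the members.

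**Figure D5:**
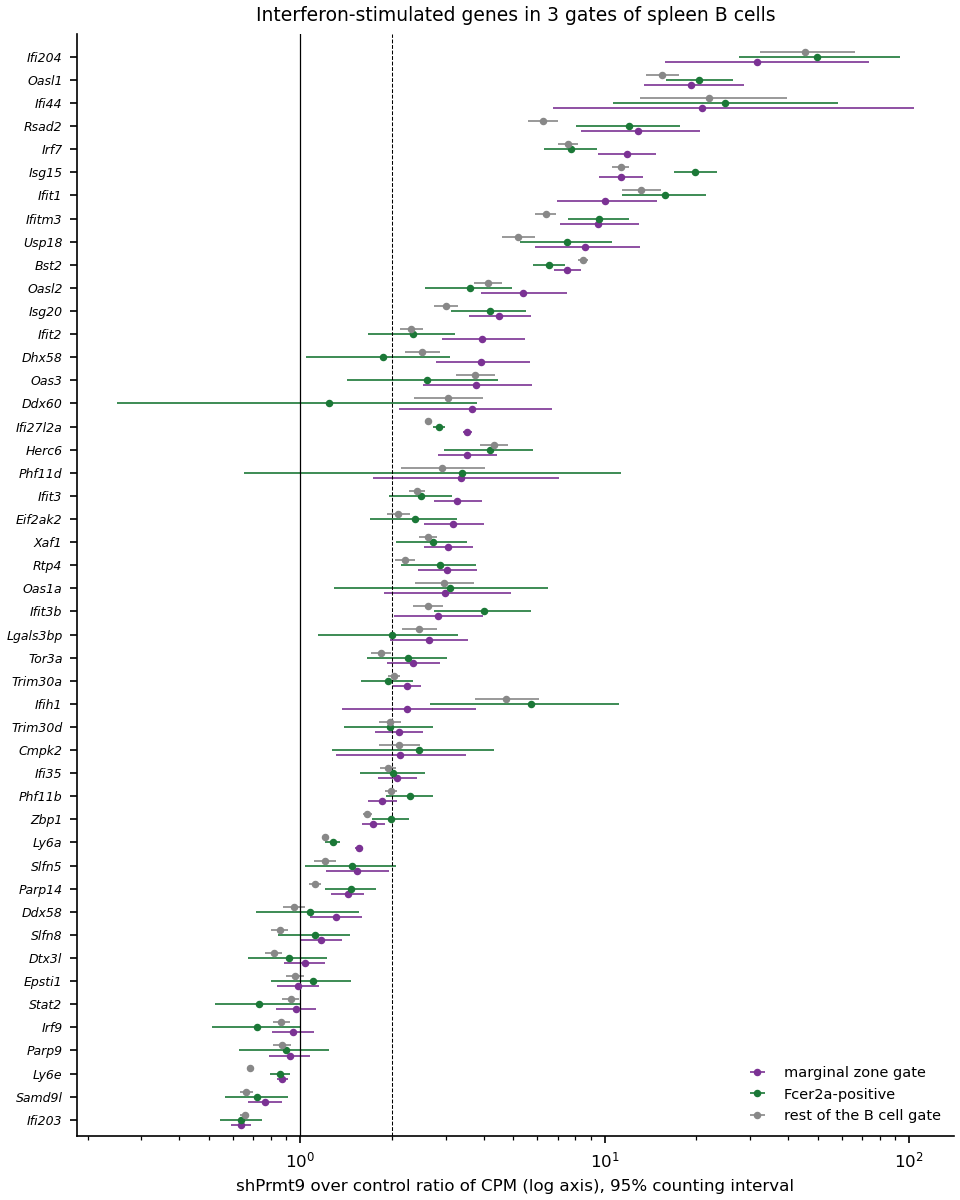
Ratio of CPM in Spleen-shPrmt9 over Spleen-Ctrl (log axis) for 47 of the 48 tested interferon-stimulated genes in members (purple), Fcer2a-positive cells (green) and the rest of the gate (grey), with 95% counting intervals, a solid line at 1 and a dashed line at 2. Points of the 3 gates lie close together for most genes, from Ifi204 at the top to Ifi203 at the bottom, and green intervals are wide where 29 cells gave few UMIs.

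Genes that respond mainly to interferon gamma did not share this direction. Of 22 tested, 2 were at least 2-fold higher (Cxcl10 and Iigp1), 7 were at least 2-fold lower, and the median was -0.54. Over all genes, 2.78% were at least 2-fold higher and 5.42% at least 2-fold lower. The chemokine Cxcl10 was at 29.6 and 327 CPM (11.0, 9.15 to 13.4), with 39.7% of the control UMIs from 1 cell. The guanylate-binding proteins Gbp7 (331 and 125 CPM), Gbp4 (252 and 110.5 CPM) and Gbp2 (521 and 251 CPM) were at 0.379, 0.439 and 0.482 of the control level. Gbp genes are close paralogs, so their counts may be partly shared. Socs3, a feedback inhibitor of cytokine receptors, was at 19.6 and 5.6 CPM. In Fcer2a-positive cells 5 of 22 genes of the list were at least 2-fold lower, in Cd93-positive cells 10 of 21 and in the rest 8 of 22. Over all genes there the shares were 14.7%, 9.21% and 11.2%. The list medians were -0.65, -0.89 and -0.74, with 2, 1 and 1 genes at least 2-fold higher. The direction was thus not particular to the members. Of 10 tested genes of cytosolic DNA sensing, Ifi204 was higher, Samhd1 (822 and 407 CPM) and Tmem173, which encodes STING (39.7 and 15.5 CPM), were at least 2-fold lower, and the median was -0.27. Ifi204 was also at least 2-fold higher and Samhd1 at least 2-fold lower in every other gate. Tmem173 was at least 2-fold lower in Cd93-positive cells and in the rest of the gate, and not in Fcer2a-positive cells. These differences were thus not particular to the members. The sensor Cgas had only 8 and 18 UMIs.

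Of 14 tested MHC class II genes 9 were at least 2-fold lower in shPrmt9 members. The other 5 lay below 1 as well, and the median was -1.21 beside -0.08 over all genes and 5.42% at least 2-fold lower. Ciita, the coactivator on which class II transcription depends, was at 80.6 and 25.5 CPM (0.316, 0.25 to 0.396). The alpha chain H2-Aa was at 1389 and 493 CPM (0.355, 0.337 to 0.374), the beta chain H2-Ab1 at 1013 and 431 CPM, and the invariant chain Cd74 at 6137 and 2594 CPM (0.423, 0.413 to 0.433). H2-Aa was found in 88.8% of control and 58.3% of shPrmt9 members after thinning to 3000 UMIs (98.5% and 84.8% before), and in 11.6% and 2.00% of thinned T cells. The medians of the list in the other gates were -0.96 in Fcer2a-positive cells, where 2 of 14 genes lay above 1, -1.99 in Cd93-positive cells and -1.65 in the rest. H2-Aa was at 0.260 of control in the rest of the gate, so that its ratio in members was 1.36 times that of the rest (1.29 to 1.44). Within each library 12 of 13 tested class II genes were lower in members than in Fcer2a-positive cells, none of them 2-fold in both and 6 of them 2-fold in Spleen-shPrmt9 alone.

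MHC class I genes went the other way by less. All 17 tested lay above 1 in shPrmt9 members with a median of 0.46, and 1 was at least 2-fold higher, the peptide-loading chaperone Calr (400 and 818 CPM, 2.04-fold). Over all genes, 2.78% were at least 2-fold higher. B2m, the class I light chain, was at 1557 and 2348 CPM (1.51, 1.46 to 1.56), and the heavy chains H2-K1 and H2-D1 were at 1.37 and 1.30 of control. The list medians in Fcer2a-positive cells, Cd93-positive cells and the rest of the gate were 0.43, 0.17 and 0.28. There 13, 11 and 13 of 17 tested genes lay above 1, so the direction was not particular to the members. The class I genes are a family with similar sequences, so reads may be shared between genes of it.

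Of 16 tested genes of the follicular program 8 were at least 2-fold lower in shPrmt9 members, beside 5.42% over all genes. The other 8 lay below 1 by less, and the median was -1.09. Ighd was at 266 and 47.6 CPM (0.179, 0.153 to 0.210), and Zfp318 at 74.0 and 17.3 CPM (0.234, 0.177 to 0.305). Klf2, a factor of resting and recirculating B cells, was at 412 and 178 CPM, and Satb1, a chromatin organiser, at 71.5 and 25.2 CPM. In Fcer2a-positive cells 10 of 16 genes were at least 2-fold lower with a median of -1.26, beside 14.7% and -0.06 over all genes. In Cd93-positive cells the count was 13 of 16 with a median of -1.46 (9.21% and -0.12 over all genes), and in the rest of the gate 13 of 16 with a median of -1.38 (11.2% and -0.18).

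Of 23 tested genes of positioning and migration, 0 were at least 2-fold higher, 7 were at least 2-fold lower, and the median was -0.50. Over all genes, 2.78% were at least 2-fold higher and 5.42% at least 2-fold lower, with a median of -0.08. Ccr6, a chemokine receptor of B cells, was at 64.7 and 9.67 CPM (0.15, 0.104 to 0.211), and S1pr1, the receptor that holds these cells at the marginal sinus, at 125 and 41.5 CPM (0.333, 0.277 to 0.398). Gpr183 was at 75.7 and 31.6 CPM and Cxcr4 at 31.1 and 15.0 CPM. Cxcr5 (86.5 and 48.6 CPM) and Ccr7 (183 and 162 CPM), which guide B cells to follicles and T cell zones, were below control and not by 2-fold. S1pr1, Gpr183 and Ccr6 were also at least 2-fold lower in Fcer2a-positive cells and in the rest of the gate. In Fcer2a-positive cells, Cd93-positive cells and the rest of the gate alike, 11 of 23 genes of the list were at least 2-fold lower. The list medians there were -0.91, -0.81 and -0.89, beside 14.7%, 9.21% and 11.2% of all genes at least 2-fold lower. The lower levels were thus not particular to the members.

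The marginal zone program itself was mixed. Of its 19 tested genes 2 were at least 2-fold higher, 3 at least 2-fold lower (S1pr1, Marcks and Gpr183), and the median was -0.18. Over all genes, 2.78% were at least 2-fold higher and 5.42% at least 2-fold lower. S1pr1, Marcks and Gpr183 were at least 2-fold lower in every other gate too, so their lower levels were not particular to the members. Zbtb32, a repressor that limits antibody recall responses, was at 17.6 CPM in control members and 158 CPM in shPrmt9 members (8.98, 7.03 to 11.6), and was found in 2.62% and 31.8% of thinned members (13.1% and 80.3% before thinning) and 0.215% and 1.29% of thinned T cells. In Fcer2a-positive cells Zbtb32 was at 2.02 and 82.5 CPM, a ratio of 40.8, so the ratio in members was 0.220 of theirs (0.126 to 0.383). Ebi3, a cytokine subunit, was at 9.55 and 19.3 CPM, while Marcks, a membrane-bound kinase substrate, was at 173 and 26.5 CPM (0.153, 0.123 to 0.188). Cd9 (1.16), Cd36 (1.53), Dtx1 (0.735) and Plac8 (1.03) differed by less than 2-fold. Notch2 was at 49.2 and 27.7 CPM (0.564, 0.442 to 0.715), and of 20 tested genes of its pathway 1 was called, the fringe glycosyltransferase Lfng at 16.9 and 4.33 CPM. That share was no higher than the 5.42% of all genes at least 2-fold lower, and Lfng was at least 2-fold lower in every other gate too.

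Of 15 tested genes of plasma cell differentiation 3 were at least 2-fold higher in shPrmt9 members (Prdm1, Ell2 and Tent5c) and 1 at least 2-fold lower, beside 2.78% and 5.42% over all genes. The other 11 lay above 1 by less than 2-fold, and the median was 0.68. Prdm1, which encodes the plasma cell regulator Blimp-1, was at 13.0 and 44.3 CPM (3.41, 2.50 to 4.73), Ell2, an elongation factor for secretory Ig transcripts, at 15.2 and 34.9 CPM, and Tent5c, a poly(A) polymerase, at 16.4 and 45.3 CPM. Xbp1, the driver of the secretory apparatus, was at 60.0 and 99.5 CPM (1.66), and Hsp90b1, an endoplasmic chaperone, at 426 and 742 CPM. In Fcer2a-positive cells the median of the list was 0.03, in Cd93-positive cells 0.67 and in the rest of the gate 0.25. The exception, Jchain, which joins IgM pentamers, was at 105 and 7.38 CPM, but 90.9% of its control UMIs came from 1 cell, and the ratio without the highest cell of each library was 0.696 (0.407 to 1.17). The plasma cell receptor Tnfrsf17 was at 0 UMIs in both.

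Single cells also weighed on the switched immunoglobulin genes. Ighg3 was at 891 CPM in control members and 21.1 CPM in shPrmt9 members, with 97.0% of the control UMIs in 1 cell, and its ratio without the highest cells was 0.683 (0.498 to 0.931). Igha was at 2.94 and 19.3 CPM (6.58, 3.56 to 13.3), from 4.10% and 44.7% of members, and at 5.67 and 78.2 CPM in the rest of the gate. Ighm was at 3355 and 4175 CPM (1.24, 1.22 to 1.27) in members, whereas it was below control in Fcer2a-positive cells, at 3458 and 2223 CPM. Igkc was at 9933 and 8149 CPM and Iglc2 at 1996 and 3216 CPM.

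Of 24 tested genes of B cell receptor signalling 1 was at least 2-fold lower, the phosphatase Inpp5d at 99.0 and 47.3 CPM, a share no higher than the 5.42% over all genes. The median of the list was -0.53, and 21 genes lay below 1. Of 23 tested transcription factors of B cells 2 were at least 2-fold higher (Zbtb32 and Prdm1), 5 were at least 2-fold lower (Klf3, Klf2, Ebf1, Mef2c and Bcl6), and the median was -0.41. These counts stand beside 2.78% higher and 5.42% lower over all genes. Ebf1, an early B lineage factor, was at 674 and 305 CPM, while Pax5, the factor of B cell identity, was at 214 and 136 CPM. Among 20 tested survival genes 3 were at least 2-fold higher, the p53 targets Bax (145 and 292 CPM) and Bbc3 (10.3 and 24.4 CPM) and the anti-apoptotic Bcl2l1 (4.16 and 11.2 CPM). Their list median was -0.05, beside 2.78% of all genes at least 2-fold higher and a median of -0.08 over all genes. Bax and Bbc3 were also at least 2-fold higher in Fcer2a-positive cells and in the rest of the gate.

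For the lists that follow, the shares over all genes in members were 2.78% at least 2-fold higher and 5.42% at least 2-fold lower. Of 16 tested genes of innate sensing 1 was at least 2-fold higher and 3 lower, with a median of -0.18. The 1 higher gene was Cd14, a coreceptor for lipopolysaccharide, with 1 UMI in control and 62 in shPrmt9 members (64.4, 11.1 to 2586), of which 62.9% came from 1 cell. Of 23 tested genes of activation 3 were at least 2-fold higher (Il10, Ccl3 and Ccl4), 4 were at least 2-fold lower (Fosb, Icosl, Cd83 and Egr3), and the median was 0.02. Ccl3 and Ccl4 went the other way in Cd93-positive cells and in the rest of the gate, at least 2-fold lower in both. In Fcer2a-positive cells Ccl4 was at least 2-fold higher. In the rest of the gate Il10 was at least 2-fold higher too, and Fosb, Icosl, Cd83 and Egr3 were at least 2-fold lower. Of 13 tested proliferation genes 3 were at least 2-fold lower (Mki67, Cdk1 and Top2a) with a median of -0.25, with 74.0% of the control Mki67 UMIs in 1 cell. In the rest of the gate the proliferation list went the other way, with 6 of 19 tested genes at least 2-fold higher and a median of 0.73, beside 3.99% and -0.18 over all genes there.

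Genes were ranked by ratio where they were tested and had UMIs in at least 10 cells of the higher group. The genes of the rule and immunoglobulin, haemoglobin, mitochondrial and sex-linked genes were left out. The highest ratios in this ranking belonged to Hmox1, Il10, Ifi204, Gzmb, Ifi207, Nqo1, Ngp, Oasl1, Ifi44, Lcn2, Rsad2 and Irf7. Hmox1, the haem oxygenase that opens the haem ring (chromosome 8, 75093621 to 75100589, plus strand), had 9 UMIs in control and 473 in shPrmt9 members, 2.20 CPM (1.01 to 4.18) and 120.4 CPM (109.8 to 132), a ratio of 54.6 (28.5 to 120.2). It was found in 0.375% and 14.4% of thinned members (3.36% and 42.4% before thinning) and in 0.358% and 4.05% of thinned T cells. Nqo1, a quinone reductase that shares the regulator Nrf2 with Hmox1, was at 0.980 CPM from 4 UMIs and at 22.7 CPM (23.1, 8.72 to 86.7). Hmox1 was 104-fold higher in Fcer2a-positive cells and 100.3-fold in the rest of the gate, so this difference was not particular to the members.

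Il10, the anti-inflammatory cytokine that marks regulatory B cells (chromosome 1, 131019845 to 131024974, plus strand), had 4 UMIs in control and 177 in shPrmt9 members, 0.980 CPM (0.267 to 2.51) and 45.1 CPM (38.7 to 52.2), a ratio of 46.0 (17.6 to 171). The UMIs were spread, with 12.4% from the highest shPrmt9 cell and 25.8% of shPrmt9 members holding at least 1. After thinning, 0.375% and 6.82% of members held a UMI, against 0 of 1397 T cells in Spleen-Ctrl, which allows a share of up to 0.215%, and 1 of 2396 in Spleen-shPrmt9 (0.0417%). Within Spleen-shPrmt9, Il10 had 0 UMIs in Fcer2a-positive cells, so that members were at least 7.46-fold higher, and was at 11.0 CPM in the rest of the gate. Its ratio between libraries in the rest was 90.8, and the ratio in members over that was 0.506 (0.112 to 2.29), which includes 1.

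Gzmb, Ngp and Lcn2 are genes of cytotoxic lymphocytes and of granulocytes. Gzmb had 12 and 308 UMIs, but 94.8% of the shPrmt9 UMIs came from 1 cell and the ratio without the highest cells was 1.53 (0.666 to 3.64). Ngp was at 1.71 and 35.9 CPM in members, from 2.61% and 57.6% of them, and Lcn2 at 0.980 and 15.8 CPM. In the rest of the gate Ngp was at 82.3 and 55.8 CPM, so the order of the libraries was the opposite there. Markers of other cells moved beside these. All 6 tested erythroid markers were at least 2-fold higher in shPrmt9 members, with a sum over 11 markers of 3089 and 19694 CPM, of which 92.1% and 21.2% came from 1 cell, and with the erythroid genes Car1, Hemgn and Klf1 at 0 UMIs in both libraries. The 19 myeloid markers summed to 230.5 and 518 CPM, with C1qa, C1qb and C1qc at 0 UMIs in both, and the 13 T and NK cell markers to 58.8 and 98 CPM. Of the myeloid markers 3 of 5 tested were at least 2-fold higher (S100a8, S100a9 and Lyz2), and of the T and NK cell markers 2 of 5 (Nkg7 and Gzma). The share over all genes was 2.78%. The 12 leukaemia markers summed to 18.6 and 19.9 CPM, the 6 platelet markers to 0 and 0.764 CPM, and the 9 stromal markers to 3.92 and 1.78 CPM. With members above 1% haemoglobin, 0.5% myeloid or 0.1% T and NK cell UMIs left out (1 and 6 cells), 32 interferon-stimulated genes were still at least 2-fold higher. The part of RNA from other cells in Hmox1, Ngp and Lcn2 was not tested.

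The lowest ratios in the same ranking belonged to Rapgef4, Gm26531, Gdpd3, Jchain, St6galnac3, Gm50386, Snhg18, B3gnt8, Serpinb1a, Cdh17, Ffar1 and Neurl2. Rapgef4, a cAMP-activated exchange factor, had 72 UMIs in 19.8% of control members and 0 in shPrmt9 members, at least 23.1-fold lower with a floor of 3 UMIs over the group. The transcript Gm26531 had 56 and 0 UMIs, at least 18-fold lower. Gdpd3, a lysophospholipase D, had 165 UMIs in control and 1 in shPrmt9 members, 40.4 and 0.255 CPM (0.00630, 0.000159 to 0.0356), and was at 57.5 CPM and 0 UMIs in Fcer2a-positive cells and 50.9 and 0.401 CPM in the rest. Serpinb1a, a protease inhibitor, was at 117 and 16.0 CPM (0.137, 0.104 to 0.179), and Ffar1, a fatty acid receptor, at 27.9 and 4.07 CPM. Cdh17, a cadherin of marginal zone and other B cells, was at 17.9 and 2.55 CPM (0.142, 0.0655 to 0.277). These genes were below control in Fcer2a-positive cells and in the rest of the gate as well, apart from Jchain, which was above control in both.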

How the data were processed

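Droplet 3' single-cell RNA was measured in 4 libraries, 1 per group, from bone marrow and spleen. The authors deposited sparse matrices of unnormalised UMI counts of 32285 features, made with Cell Ranger against mm10. The submitters' processing notes give version 6.1.1 and the file headers 6.0.2. Barcodes with fewer than 200 detected genes or over 20% mitochondrial UMIs were dropped, the rule was applied to raw counts, and the UMIs of the members were summed per library and gate and scaled to 1000000 UMIs (CPM). With 1 library per group no test was made. Levels carry exact Poisson intervals, ratios exact conditional binomial intervals, ratios of ratios normal intervals on the log scale, and shares Clopper-Pearson intervals, all at 95% and for counting error only. A gene was called where it differed at least 2-fold and had at least 50 UMIs in the groups compared. A group at 0 UMIs was set to a floor of 3 UMIs. The genes named by rank are the 12 highest and 12 lowest with UMIs in at least 10 cells of the higher group, leaving out the genes of the rule and immunoglobulin, haemoglobin, mitochondrial and sex-linked genes, beside genes of the fixed lists. Log2 ratios carry a prior count of 0.5. Doublets were not removed for the main values. Scrublet's own threshold marked only 1 cell of Spleen-Ctrl and so did not work there, and as an alternative the highest scores at a rate of 0.8% per 1000 cells were left out. Scaling by the trimmed mean of M values (edgeR 4.0.16, R 4.3.3), depth windows, other sums and other count minimums were further alternatives. The calculations used python 3.11.15 with numpy 2.4.6, scipy 1.17.1, pandas 2.3.3 and scanpy 1.11.5, and were tested on simulated data. Coordinates are GRCm38 (GENCODE vM21). Mx1, Mx2 and Ahsp of the gene lists were not analysed here. The symbol Sting1 was absent from the features, and the gene for STING was counted as Tmem173. The members and the gene lists were chosen with earlier results of these data known. Some genes of the lists are counted in them and not reported here by name.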

Additional observations from a re-analysis of the deposited data

Results flagged for a closer look

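The same rule was also applied to the bone marrow libraries, which no comparison above used. In BM-Ctrl 30 of 856 gated B cells passed it (3.50%, 2.38 to 4.97%), and in BM-shPrmt9 24 of 74 did (32.4%, 22 to 44.3%), both above the 3 cells that a count of 0 allows. The cells that passed had median depths of 8158.5 and 13211.5 UMIs. A rule on raw UMIs passes more cells where cells are deeper, and the part of depth in these shares was not tested. Cr2 had 8 and 5 UMIs in these cells and Fcrl5 97 and 96 UMIs, so Fcrl5 carried the sum in both. Cd9 was at 235 and 284 CPM and Mzb1 at 838 and 655 CPM, and Isg15 was at 82.0 and 206 CPM. These cells held 75 and 311 UMIs of the female transcript Xist and 0 of the Y-linked Ddx3y, whereas the spleen members held 0 of Xist and 308 and 251 of Ddx3y. The marrow and spleen cells of a group thus differed in these sex-linked genes, so they may come from different mice, and their levels were not compared. The paper, in contrast, names a representative mouse per group as the source of both tissues.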

How the results depend on the processing

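The share of gated B cells reversed its order when the rule was applied after thinning to 5000 UMIs, to 2.08% and 1.57% with a ratio of 0.753. It was 9.05% and 17.0% with a sum of at least 2, and 1.62% and 4.05% with a sum of at least 5. Genes at least 2-fold higher and lower in shPrmt9 members (227 and 443) became 84 and 154 with the rule after thinning, 122 and 242 in members of 3000 to 20000 UMIs, 127 and 156 with at least 200 UMIs, and 1711 and 2737 with at least 1 UMI. The lower calls became 252 with a sum of at least 5 and 190 in members without a Cr2 UMI. Of the interferon-stimulated genes 14 of 29 tested were at least 2-fold higher after thinning, 0 were at least 2-fold lower in each setting run, and the median ranged from 0.95 to 1.60. Genes called higher and lower than in Fcer2a-positive cells (58 and 22) became 8 and 1 after thinning, 17 and 14 at 3000 to 20000 UMIs, 16 and 7 with at least 200 UMIs, 212 and 439 with at least 1 UMI, and 14 and 50 against Cd93-positive cells, and the higher calls became 36 with a sum of at least 5. Scaling by trimmed means moved the median over all genes of members over Fcer2a-positive cells in Spleen-shPrmt9 from -0.14 to 0.05.

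Among named genes, log2 ratios changed sign after thinning for Ifi204 (-1.37), Gzmb (-1.37), Jchain (1.44), Socs2 in Spleen-shPrmt9 (-1.37) and Tent5c in Spleen-Ctrl (-3.62). At 3000 to 20000 UMIs they did for Ighg3 (1.19), Top2a (-0.048) and Tent5c (-0.43) in Spleen-Ctrl, and Jchain was at 1.28 with a sum of at least 5 and 2.89 in members with a Cr2 UMI. Against Cd93-positive cells Mt1 was at -1.44 and -1.81, and in Spleen-shPrmt9 Cd300lf was at -0.95, Top2a at -2.29, Nedd4 at -1.36, Icam1 at 0.30, Gpr183 at 1.61 and Tm6sf1 at -0.29. Against the rest of the gate Top2a in Spleen-shPrmt9 was at -0.23. The cause of these changes was not tested. The settings that split members by Cr2, left out cells with other lineages' markers or the highest cell per gene, or compared with the rest of the gate were chosen after seeing the data. No paired analysis was possible because each group had 1 library and the replicate number 1 is only a name, and for the same reason no replicate could be left out.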
